A study of Mus musculus with 12 samples.

Results

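The 52 genes described here encode the machinery that fills, tethers, fuses and recycles synaptic vesicles: synapsins and vesicle membrane proteins, synaptotagmins, SNAREs with their regulators, active zone scaffolds with the Rab3 proteins, and the proteins that make and load GABA and glutamate. They were chosen by symbol, and each gene was read through its brightest probe among those with a detection p under 0.05 on at least 3 of 12 arrays. Of the 52 genes, 47 passed that filter, out of 12732 genes kept in all. RNA was hybridised to Illumina MouseWG-6 v2.0 arrays, on which beads carry the probes, and came from nucleus accumbens of C57BL/6J mice aged 8 to 10 weeks, with bilateral punches of 4 mice pooled for each array and 3 arrays in each of 4 groups. Every mouse received 15 daily intraperitoneal injections and was killed 1 h after the last, and cocaine-HCl was always given at 20 mg/kg. The acute group received 14 saline injections and 1 of cocaine. The repeated group received 7 of saline and then 8 of cocaine. In the withdrawal group, 7 cocaine injections were followed by 7 of saline and by 1 cocaine challenge. Groups follow the sample titles; a second header line of one deposited table heads the withdrawal arrays coc+, the acute arrays sal+, the repeated arrays cont and the saline arrays sal-. What cont stands for is not stated there, and every value of the repeated group rests on the titles. The saline group received only saline, so the repeated injections, the handling and the strain were common to all groups. The labels do not state the sex of the mice, and pooling hides the spread between single mice. The title of the series names repression by the histone methyltransferase G9a, and the arrays compare cocaine schedules in wild-type mice.

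Transmitter release begins when vesicular transporters load a vesicle that the synapsins hold in a reserve pool near the active zone, where Rab3 proteins and RIM, Munc13, bassoon and piccolo scaffolds dock and prime it. Fusion is driven by SNARE proteins on the vesicle and the plasma membrane, is clamped by complexins and is triggered by calcium binding to synaptotagmins, after which NSF and its SNAP adaptors take the SNARE complex apart. Most neurons of the nucleus accumbens are GABAergic medium spiny neurons, while its glutamate inputs come from cell bodies elsewhere, in cortex, thalamus, hippocampus and amygdala, whose messenger RNA lies mostly outside a punch of the accumbens.

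The arrays showed a striatal punch with neuronal release genes well detected. Of the 47 members, 45 were detected on all 12 arrays (95.7%, against 81.7% of all genes kept), and the markers of medium spiny neurons, of which 14 of 19 listed were kept, included Ppp1r1b at a log2 intensity of 13.73 to 14.17. Array pairs correlated at 0.973 to 0.992 over all kept probes. Between 22189 and 23803 probes were detected on an array. The median pooled SD between arrays of one group was 0.165 on the log2 scale for the members and 0.176 for all genes. Unc13a was detected on 6 arrays and Bsn on 5, and the 5 members left without a level were Snap25, Synpr, Syt2, Syt10 and Cplx3. Snap25, whose product is the plasma membrane SNARE of neurons, has 2 probes, and their background-subtracted intensities ran from -15.3 to -2.53 and from -11.0 to 4.31 with no array detected. A probe that is not detected gives no level for its gene.

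No release gene passed the test adjusted over the whole array in any comparison of the 4 groups. By limma, 0 of 47 members had an adjusted p under 0.05 in acute, repeated or withdrawal against saline, in the 3 comparisons among the cocaine groups, in the mean of the 3 cocaine groups against saline, or in the F test over all groups (0% of all genes in each, except 0.00785% for repeated against acute). The lowest adjusted p of any member was 0.455, for Syt6 in repeated against saline. Without adjustment, p was under 0.05 for 2 members in acute against saline (4.26%, against 3.75% of all genes), for 4 in repeated against saline (8.51%, against 8.59%) and for 2 in withdrawal against saline (4.26%, against 7.15%). It was under 0.05 for 3 members in repeated against acute (6.38%, against 4.8%), for 1 in withdrawal against acute (2.13%, against 5.07%), for 0 in withdrawal against repeated (0%, against 1.93%), and for 2 in the mean of the cocaine groups against saline (4.26%, against 7.7%). These shares lie near or below those of all genes. In a bulk punch, fewer cells of a type and less RNA per cell cannot be told apart.

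The series itself names as criteria an unadjusted p under 0.05 together with a difference of 1.3-fold or more. By their brightest probes, 4 of the 47 genes met them in some comparison: Syt6, Rab3c, Syt9 and Bsn. Dimmer kept probes of other members met them too and are left out of the counts. Among these were Nsf (0.69 in repeated and in withdrawal against saline) and Sv2b (0.39 in repeated against saline, 0.61 in repeated against acute). Syn2 (-0.52, withdrawal against saline), Syn3 (0.89, repeated against acute) and Rims2 (-0.92, acute against saline) also did, and none of these passed the adjusted threshold. Syt6 met them against saline in the acute group (1 of 47, 2.13%, against 2.14% of all genes), Syt6 and Rab3c in the repeated group (4.26%, against 3.74%) and Syt6 in the withdrawal group (2.13%, against 2.82%). In repeated against acute, Rab3c was higher and Syt9 lower (4.26%, against 2.41%). Bsn alone met them in withdrawal against acute (2.13%, against 2.62%), but it passed the detection filter only through 2 repeated and 3 withdrawal arrays, with 0 acute and 0 saline arrays detected, so this is a description and no support. None met them in withdrawal against repeated (against 1.34%). In the mean of the 3 cocaine groups, Syt6 met them (2.13%, against 2.32%). These counts rested on single arrays. In repeated against acute 0 members met the criteria without the second repeated array and 1 without the first or second acute array. In withdrawal against acute 0 did without the first or second acute array or the first or the third withdrawal array, and 2 did without the third acute array. In repeated against saline 1 did without the second repeated or the second saline array. In the mean of the cocaine groups 2 did without the second withdrawal or the second saline array, in acute against saline 2 did without the second or without the third saline array, and in withdrawal against repeated 1 did without the first repeated or the first or second withdrawal array. In withdrawal against saline 3 did without the second withdrawal array, and 2 without the first or the third repeated, the first withdrawal or the second saline array. The comparisons with saline share the 3 saline arrays, and those among cocaine groups share their arrays too.

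The intervals of the differences show how far each was bounded. The 95% interval of the difference lay within 1.3-fold in both directions for 22 of 47 members in acute against saline (46.8%, against 38.3% of all genes), for 16 in repeated against saline (34%, against 31.3%) and for 18 in withdrawal against saline (38.3%, against 31.6%). It did so for 20 members in repeated against acute (42.6%, against 35.2%), for 21 in withdrawal against acute (44.7%, against 34.6%), for 20 in withdrawal against repeated (42.6%, against 42.5%) and for 27 in the mean of the 3 cocaine groups (57.4%, against 47.7%). The median log2 difference of the members was 0.05 in the acute, 0.10 in the repeated and 0.07 in the withdrawal group against saline, where the medians of all genes were within 0.01 of 0. Of the 47, 31, 36 and 33 were higher than saline in the acute, repeated and withdrawal groups, which is 66%, 76.6% and 70.2% against 49.1%, 49.1% and 49% of all genes. Among the cocaine groups, 31 members were higher in repeated than in acute (66%, against 49.7%), 27 in withdrawal than in acute (57.4%, against 49.8%) and 20 in withdrawal than in repeated (42.6%, against 50.7%). In the mean of the cocaine groups 36 were higher than saline (76.6%, against 49.5%). Array by array, the members' median deviation from their own means was -0.01, -0.05 and 0.09 on the acute arrays, -0.08, 0.12 and 0.08 on the repeated arrays, 0.03, 0.06 and -0.04 on the withdrawal arrays and -0.13, -0.01 and -0.07 on the saline arrays. The groups overlapped on this measure, and the first saline array and the first repeated array were the lowest.

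Arrays of 2 groups that did not overlap picked out few members. Against saline, every acute array was higher for Syt4, Syt6, Syt9, Vamp2 and Vamp4 by their brightest probes (10.6%, against 3.1% of all genes) and lower for none (against 4.17%). A second probe of Vamp4 ran the other way, at -0.16 ± 0.10 (SE) in acute against saline. Every repeated array was higher for Rab3c, Syn2, Syn3, Syt4 and Syt6 (10.6%, against 7.81%) and lower for Napa and Syt5 (4.26%, against 9.46%). Every withdrawal array was higher for Slc32a1, Syn2, Syt4 and Syt6 (8.51%, against 6.9%) and lower for Syt5 (2.13%, against 7.97%). Between cocaine groups, Rab3c, Rims2, Slc32a1 and Syn2 were higher on every repeated than on every acute array (8.51%, against 5.24%) and Syt9 was lower (2.13%, against 5.41%). Bsn, Slc32a1, Syt4 and Vamp3 were higher on every withdrawal than on every acute array (8.51%, against 5.01%), with none lower (against 4.68%). The place of Bsn among these is partly fixed by the detection filter, which it passed only through repeated and withdrawal arrays. Syt4 was higher on every withdrawal than on every repeated array (2.13%, against 3.93%), with none lower (against 3.42%).

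**Figure D1:**
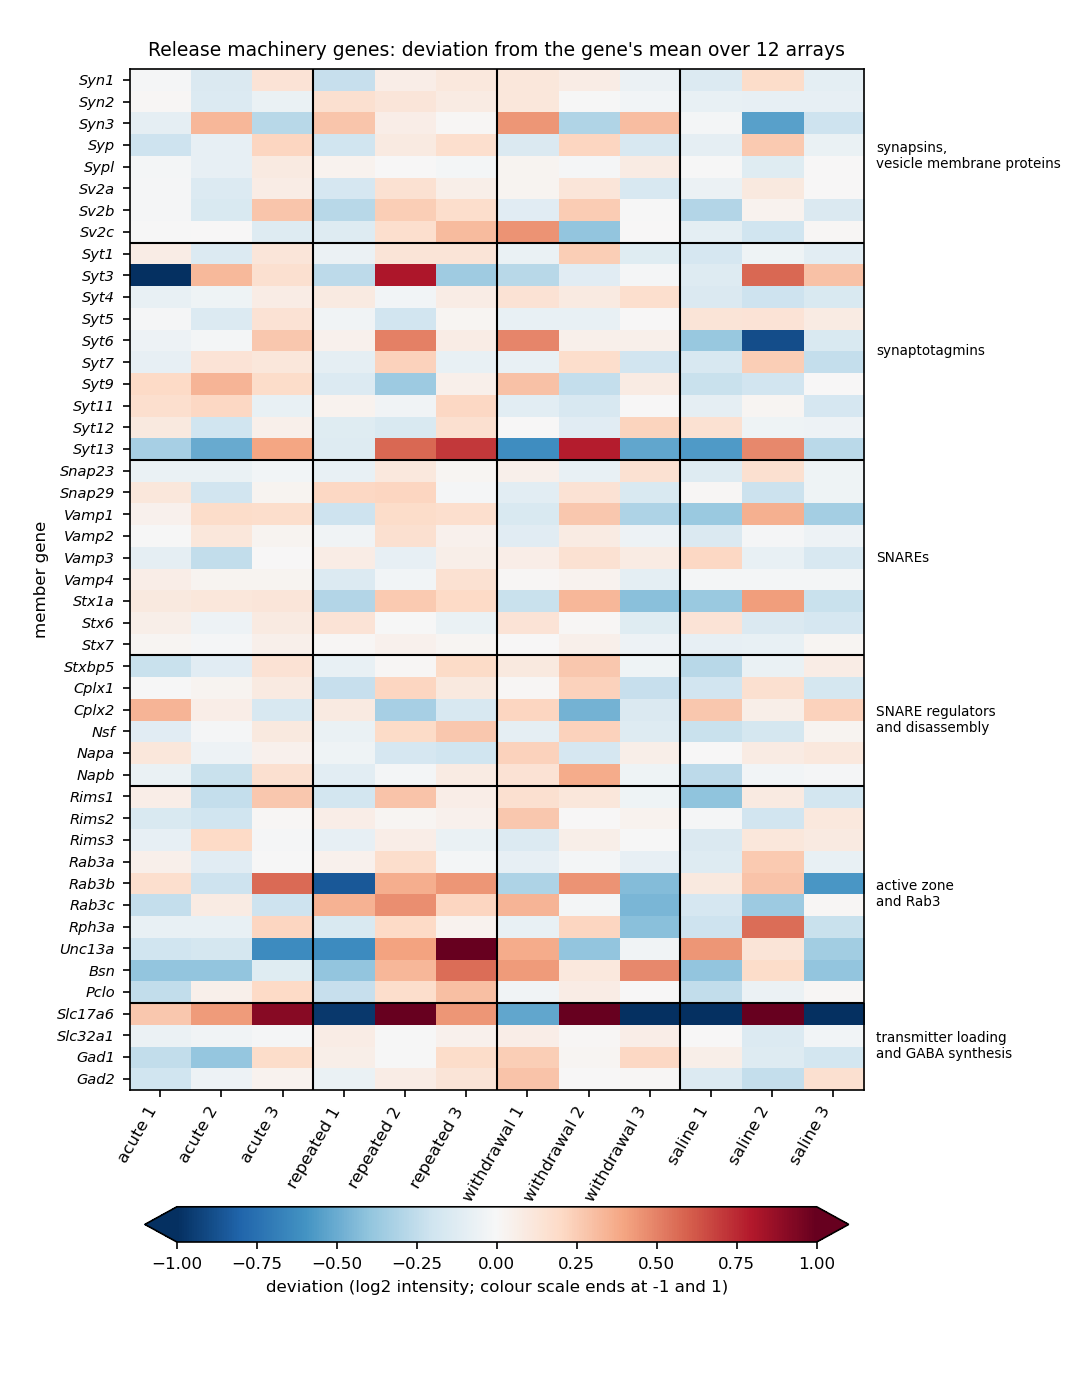
Log2 intensity of the 47 kept members (down the page, ordered by role) on each of the 12 arrays (across, acute, repeated, withdrawal, then saline), as the deviation from the gene's mean over the arrays, with colours ending at -1 and 1. Slc17a6 varies within each group, while Syt4 and Syt6 are below their means on all 3 saline arrays.

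**Figure D2:**
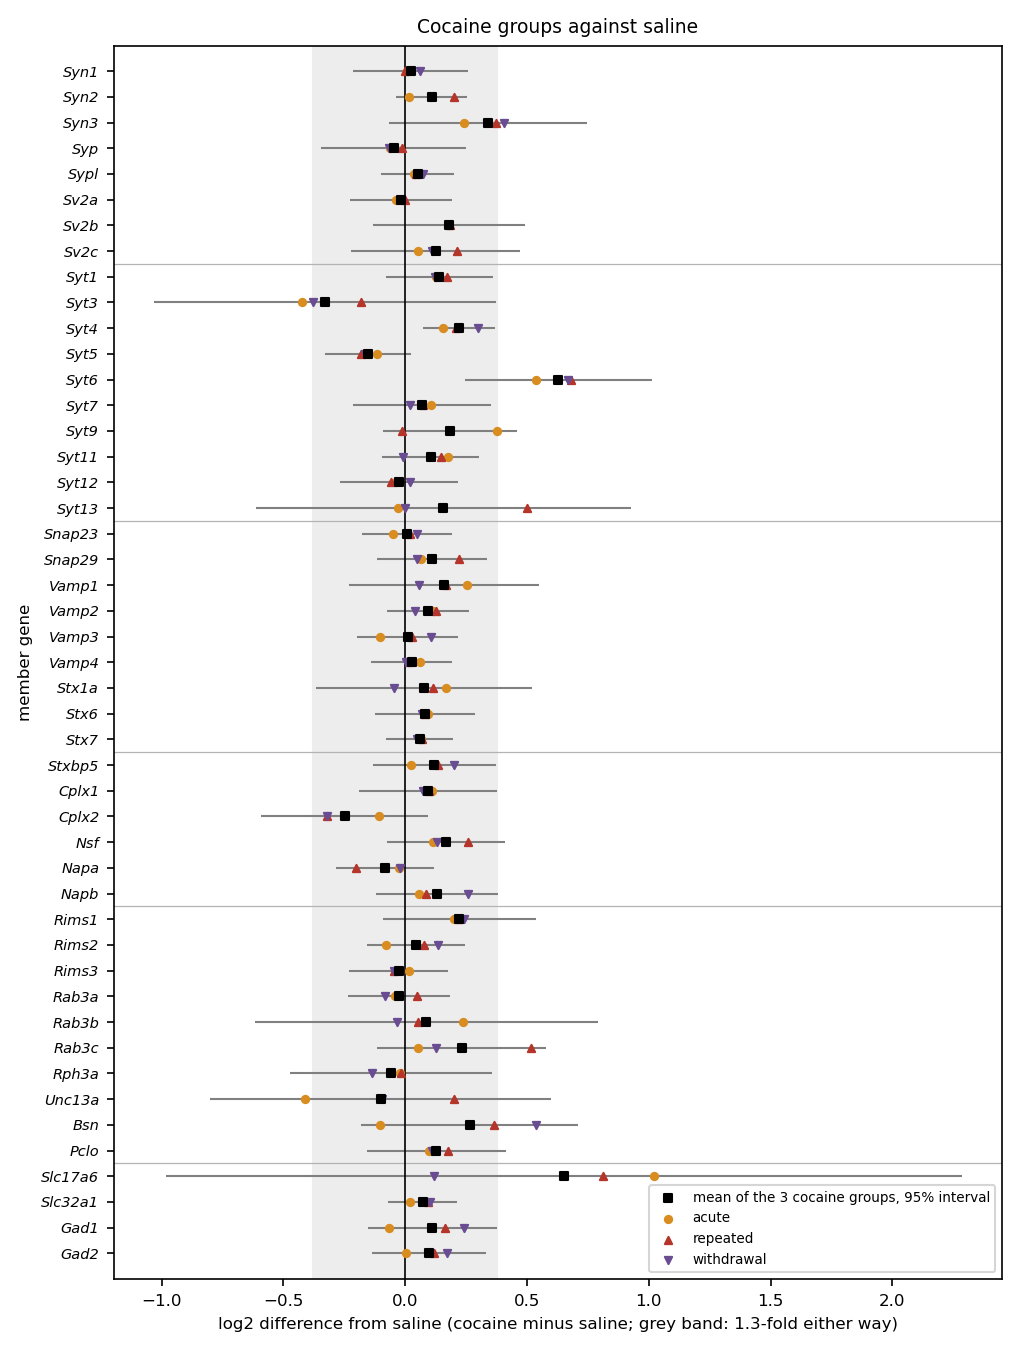
Log2 difference from saline for the 47 members, with a point for the acute, the repeated and the withdrawal group and the mean of the 3 groups with its 95% interval (limma, 3 arrays a group); the grey band spans 1.3-fold in both directions. The intervals of Syt6 (0.24 to 1.01) and Syt4 (0.07 to 0.37) are the ones that lie above 0, before any adjustment for the number of genes.

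Promoters of a few members are shown because cocaine is known to activate the factor CREB in striatal neurons. The cAMP response element of CREB has the core TGACGTCA. Windows are the 250 bases before a transcription start in RefSeq on GRCm38.p6, written 5′ to 3′ on the gene's strand. At least one was found for 42 of the 52 members, and where a gene had several, the one at the lowest coordinate is shown. Syt4 was among the members without a window, whose promoters were not searched. The window of Rab3c lies inside the span of the gene, which ends at 110280996 on the minus strand, so it precedes an internal start and not the outermost one. Capitals mark TGACG, the partial cAMP response element, and GGGCGG, the GC box, on either strand. Syt6 and Rab3c are the genes that met the series criteria against saline by their brightest probes. Slc17a6 and Stx1a are those whose levels followed the cortical markers, and Syn1 holds the only full TGACGTCA among the members with a window. The windows are chr3:103574995-103575244 on the plus strand for Syt6, chr13:110280207-110280456 on the minus strand for Rab3c, chr7:51621580-51621829 on the plus strand for Slc17a6, chr5:135023232-135023481 on the plus strand for Stx1a and chrX:20920919-20921168 on the minus strand for Syn1.
Syt6: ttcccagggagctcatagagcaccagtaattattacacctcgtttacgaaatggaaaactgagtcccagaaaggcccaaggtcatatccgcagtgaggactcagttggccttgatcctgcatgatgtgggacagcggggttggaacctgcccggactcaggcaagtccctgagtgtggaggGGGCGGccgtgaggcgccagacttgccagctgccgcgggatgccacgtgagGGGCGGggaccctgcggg
Rab3c: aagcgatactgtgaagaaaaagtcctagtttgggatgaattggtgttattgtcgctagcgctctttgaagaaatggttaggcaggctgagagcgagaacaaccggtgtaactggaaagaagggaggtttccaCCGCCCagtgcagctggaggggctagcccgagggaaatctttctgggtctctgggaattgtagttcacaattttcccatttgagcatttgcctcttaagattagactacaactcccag
Slc17a6: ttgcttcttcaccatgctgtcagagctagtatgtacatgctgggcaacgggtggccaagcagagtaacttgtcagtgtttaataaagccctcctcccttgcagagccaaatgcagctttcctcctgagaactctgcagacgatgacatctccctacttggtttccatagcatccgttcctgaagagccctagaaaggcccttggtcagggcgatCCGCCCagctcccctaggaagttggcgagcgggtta
Stx1a: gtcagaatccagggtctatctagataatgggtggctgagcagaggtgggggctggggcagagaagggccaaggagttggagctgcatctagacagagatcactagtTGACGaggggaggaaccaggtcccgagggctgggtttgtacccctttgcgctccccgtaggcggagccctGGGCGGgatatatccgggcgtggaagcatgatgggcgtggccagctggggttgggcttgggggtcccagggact
Syn1: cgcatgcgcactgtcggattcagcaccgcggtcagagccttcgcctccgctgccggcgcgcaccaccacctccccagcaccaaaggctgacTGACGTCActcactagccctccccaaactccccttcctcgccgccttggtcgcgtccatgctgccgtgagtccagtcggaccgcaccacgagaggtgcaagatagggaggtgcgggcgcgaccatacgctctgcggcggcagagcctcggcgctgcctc
Both strands were searched, and TGACG is contained in TGACGTCA. TGACGTCA was found in 1.72% of the 58 member windows, against 1.55% of all 32851 windows, and TGACG in 22.4%, against 17.8%. The AP-1 site TGANTCA was found in 5.17% of member windows, against 6.75% of all, and the Egr site GCGTGGGCG in 1.72%, against 0.536%. The GC box GGGCGG was in 56.9% of member windows, against 32.7% of all, and 29 of the 42 genes had one. A match describes these letters only.

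Among the synaptotagmins, the calcium sensors and related membrane proteins of vesicles, Syt6 and Syt4 stood higher on all 9 cocaine arrays than on all 3 saline arrays. These 2 of 47 members (4.26%) did so, against 0.73% of all genes, and no member was lower on all 9 (against 1.17%). Syt6 encodes a calcium-binding synaptotagmin that is studied for its part in sperm exocytosis as well as in brain. Its log2 intensity was 6.72, 6.75 and 7.04 on the acute arrays, 6.81, 7.28 and 6.85 on the repeated arrays, 7.26, 6.82 and 6.82 on the withdrawal arrays, and 6.39, 5.89 and 6.62 on the saline arrays. The second saline array was the lowest and the cocaine groups overlapped one another. Syt6 was 1.55-fold higher in the mean of the 3 cocaine groups than in saline (log2 difference 0.63 ± 0.17, SE; limma unadjusted p 0.00442, adjusted p 0.464). By group the log2 difference was 0.54 ± 0.21 in acute, 0.68 ± 0.21 in repeated and 0.67 ± 0.21 in withdrawal against saline. Without the second saline array the mean difference was 0.42. A dimmer probe of Syt6 gave -0.12, -0.36 and -0.18 (SE 0.20 each) in the same 3 comparisons, so the 2 probes of the gene differed in direction.

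Syt4 encodes a synaptotagmin that is known as an activity-regulated gene and that sits on vesicles of neuropeptides and growth factors. It measured 12.32, 12.35 and 12.47 on the acute arrays, 12.48, 12.36 and 12.47 on the repeated arrays, 12.54, 12.48 and 12.56 on the withdrawal arrays, and 12.25, 12.19 and 12.24 on the saline arrays. All 9 cocaine arrays lay above the highest saline array, and the 3 withdrawal arrays were also above every acute array. The difference was small: 1.17-fold in the mean of the cocaine groups (log2 difference 0.22 ± 0.07, SE; limma unadjusted p 0.00701, adjusted p 0.496). It was 0.15 ± 0.08 in acute, 0.21 ± 0.08 in repeated and 0.30 ± 0.08 in withdrawal against saline, and the last had an unadjusted p of 0.00391 with a limma adjusted p of 0.608. The F test over the 4 groups gave an unadjusted p under 0.05 for Syt4 and Syt6 alone of the members (4.26%, against 5.42% of all genes).

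Syt9, a fast calcium sensor known from limbic and striatal neurons, differed between the acute and the repeated group. Its log2 intensity was 7.56, 7.71 and 7.55 on the acute arrays, 7.23, 7.01 and 7.42 on the repeated arrays, 7.66, 7.13 and 7.45 on the withdrawal arrays, and 7.15, 7.17 and 7.38 on the saline arrays. Every acute array was above every repeated and every saline array, and the withdrawal arrays spanned the range. In repeated against acute the log2 difference was -0.39 ± 0.15 (SE; limma unadjusted p 0.0282, adjusted p 0.878), and in acute against saline it was 0.38 ± 0.15. Syt1, the main calcium sensor of fast release in forebrain, measured 14.02, 13.81 and 14.07 on the acute arrays, 13.89, 14.08 and 14.08 on the repeated arrays, 13.88, 14.19 and 13.83 on the withdrawal arrays, and 13.78, 13.90 and 13.84 on the saline arrays. Its groups overlapped, and its mean difference of 0.14 had a 95% interval of -0.08 to 0.36. Syt5, found on dense-core vesicles, measured 11.01, 10.89 and 11.17 in acute, 10.995, 10.84 and 11.05 in repeated, 10.95, 10.95 and 11.03 in withdrawal, and 11.16, 11.16 and 11.11 in saline. The repeated and withdrawal arrays all lay below the saline arrays, by 0.18 and 0.16 on average. Syt11, a synaptotagmin that does not bind calcium, measured 10.18, 10.21 and 9.93 in acute, 10.04, 9.98 and 10.22 in repeated, 9.90, 9.85 and 10.01 in withdrawal, and 9.92, 10.03 and 9.84 in saline, with overlap between all groups. As a role, 10 of 12 synaptotagmins were kept, and 6 were higher than saline in each cocaine group, with median differences of 0.12 in acute, 0.11 in repeated and 0.02 in withdrawal. The others, Syt3, Syt7, Syt12 and Syt13, had mean differences between -0.33 (Syt3, ± 0.31, SE) and 0.16 (Syt13, ± 0.35).

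**Figure D3:**
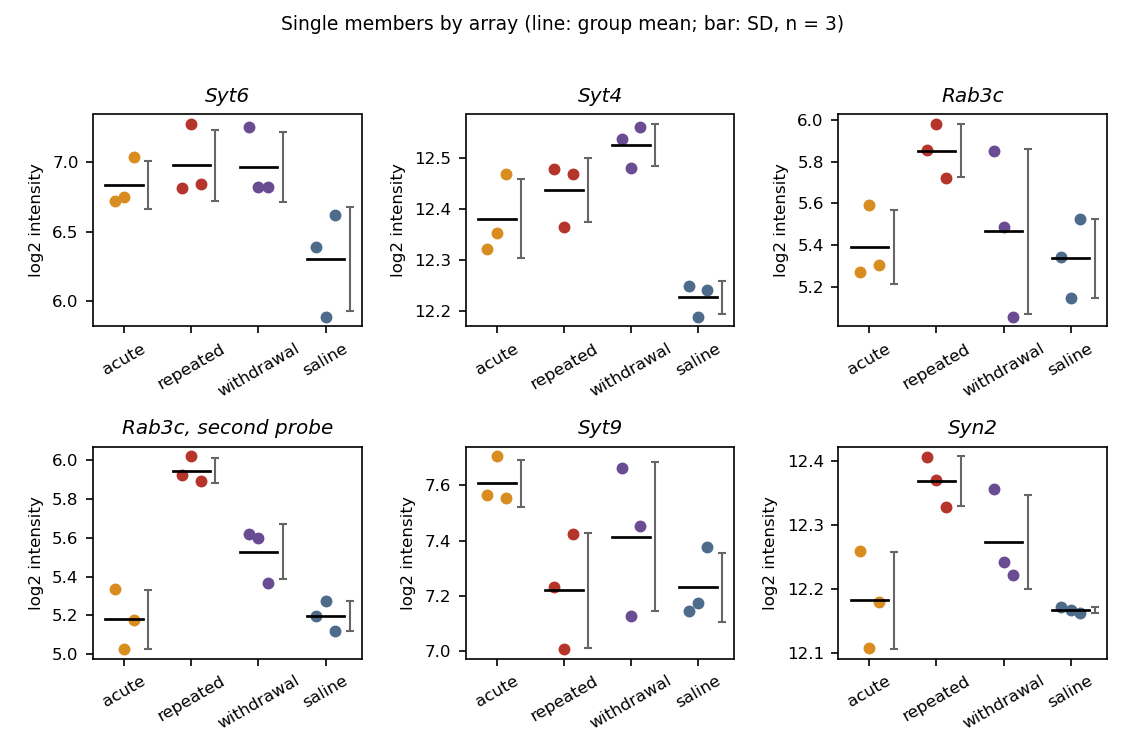
Log2 intensity of Syt6, Syt4, Rab3c by its brightest probe, Rab3c by its second probe, Syt9 and Syn2 on every array, in the order acute, repeated, withdrawal, saline; points are arrays, lines group means and bars the SD (n = 3). For Syt6 and Syt4 the 3 saline points lie below all 9 cocaine points, and for both Rab3c probes the repeated points lie above the acute and the saline points.

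The synapsins, which tether vesicles to each other and to actin, and the vesicle membrane proteins had mean cocaine differences between -0.05 and 0.34. Synaptophysin (Syp) had a mean cocaine difference of -0.05 and the glycoprotein Sv2a one of -0.02, and Syn1 was at 0.02. Synapsin II, Syn2, was at 12.26, 12.11 and 12.18 on the acute arrays, 12.41, 12.37 and 12.33 on the repeated arrays, 12.36, 12.24 and 12.22 on the withdrawal arrays, and 12.17, 12.17 and 12.16 on the saline arrays. The repeated arrays lay above every acute and every saline array, and the log2 difference from saline was 0.20 ± 0.08 (SE; limma unadjusted p 0.0304, adjusted p 0.523). The other 2 probes of Syn2 ran the other way, at -0.29 ± 0.15 and -0.32 ± 0.44 (SE) in repeated against saline. In withdrawal against saline they gave -0.52 ± 0.15 and -0.77 ± 0.44, against 0.11 by the brightest probe, so the direction for the gene is not settled. Syn3, the synapsin of immature and some adult neurons, measured 6.29, 6.71 and 6.10 in acute, 6.66, 6.44 and 6.39 in repeated, 6.82, 6.08 and 6.69 in withdrawal, and 6.36, 5.84 and 6.17 in saline. The repeated arrays were above all saline arrays and the other groups overlapped, and the mean cocaine difference was 0.34 ± 0.18 (SE). The other kept probes of Syn3, all dimmer, gave 0.16, -0.08, 0.34, -0.19 and 0.29 in that mean, with SE from 0.27 to 0.50, so the direction for the gene is not settled. Of the 8 kept of 9 genes in this role, 6, 5 and 6 were higher than saline in acute, repeated and withdrawal, with medians of 0.03, 0.11 and 0.09. Sv2b, a paralogue of Sv2a, had 0.18 in the mean of the cocaine groups, with a 95% interval of -0.13 to 0.49.

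The SNAREs, which bring the membranes together, had mean cocaine differences between 0.01 and 0.16. Vamp2, the principal vesicle SNARE, measured 12.79, 12.91 and 12.82 on the acute arrays, 12.76, 12.95 and 12.84 on the repeated arrays, 12.68, 12.87 and 12.75 on the withdrawal arrays, and 12.65, 12.78 and 12.74 on the saline arrays. The acute arrays lay just above all saline arrays, and the other groups overlapped saline. Stx1a, the plasma membrane syntaxin, measured 10.92, 10.94 and 10.94 in acute, 10.53, 11.09 and 11.02 in repeated, 10.60, 11.15 and 10.40 in withdrawal, and 10.45, 11.24 and 10.61 in saline. Its saline arrays alone spanned nearly the whole range, with the second array high. Vamp3, the SNARE of recycling endosomes, measured 9.82, 9.67 and 9.92 in acute, 9.99, 9.83 and 9.97 in repeated, 9.98, 10.06 and 9.99 in withdrawal, and 10.12, 9.84 and 9.75 in saline. Withdrawal was above every acute array, by a log2 difference of 0.21, and overlapped saline. A second probe of Vamp3 ran the other way, at -0.30 ± 0.11 in withdrawal against acute (SE; limma unadjusted p 0.0207, adjusted p 0.848), so the direction is not settled. Snap29, a SNARE of endosomes and autophagosomes, measured 9.33, 9.03 and 9.25 in acute, 9.43, 9.44 and 9.21 in repeated, 9.12, 9.37 and 9.07 in withdrawal, and 9.23, 9.01 and 9.18 in saline, with all groups overlapping. By their brightest probes, all 9 kept SNAREs of 10 had a positive mean difference from saline, where 49.5% of all genes were higher. The median was 0.08, and none had an unadjusted p under 0.05. In the same comparison the other kept probes of Stx6 and Vamp1 were positive, and those of Vamp3 and Vamp4 gave -0.07 and -0.08. The highest estimate of the 9 was that of Vamp1, the paralogue of Vamp2, at 0.16 with a 95% interval of -0.23 to 0.55.

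Of the proteins that clamp or dismantle the SNARE complex, 6 of 7 genes were kept and 4 were higher than saline in each cocaine group. Nsf, the ATPase that takes used SNARE complexes apart, averaged 0.17 above saline, and 0.57 ± 0.21 (SE) by a dimmer probe. Stxbp5, or tomosyn, averaged 0.12. Napb, the beta SNAP adaptor of NSF, measured 12.11, 11.95 and 12.34 on the acute arrays, 12.07, 12.16 and 12.26 on the repeated arrays, 12.32, 12.55 and 12.13 on the withdrawal arrays, and 11.92, 12.15 and 12.17 on the saline arrays. The second withdrawal array was the highest, and the groups overlapped. Napa, the alpha SNAP adaptor, measured 10.00, 9.83 and 9.93 in acute, 9.84, 9.71 and 9.68 in repeated, 10.11, 9.71 and 9.94 in withdrawal, and 9.89, 9.96 and 9.99 in saline. Every repeated array was below every saline array, by a log2 difference that averaged -0.20. The other kept probes of Napa gave -0.0006 ± 0.14 and -0.12 ± 0.10 (SE) in repeated against saline. Among the complexins, which clamp and then promote fusion, Cplx1 averaged 0.09 and Cplx2 -0.25 (95% interval -0.59 to 0.09) against saline.

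At the active zone, Rab3c was higher after repeated cocaine by 2 of its 3 probes. Rab3c is a small GTPase of the Rab3 family that binds vesicles and the RIM scaffolds. Its brightest probe measured 5.27, 5.59 and 5.30 on the acute arrays, 5.86, 5.98 and 5.72 on the repeated arrays, 5.85, 5.49 and 5.06 on the withdrawal arrays, and 5.34, 5.15 and 5.52 on the saline arrays. The repeated arrays lay above all acute and all saline arrays, and the withdrawal arrays overlapped every group. The log2 difference was 0.52 ± 0.19 in repeated against saline (SE, 1.43-fold; limma unadjusted p 0.0222, adjusted p 0.5), 0.46 ± 0.19 in repeated against acute (1.38-fold) and -0.39 ± 0.19 in withdrawal against repeated. The second probe was singled out after its values were seen. It measured 5.33, 5.03 and 5.18 on the acute arrays, 5.92, 6.02 and 5.89 on the repeated arrays, 5.62, 5.60 and 5.37 on the withdrawal arrays, and 5.20, 5.28 and 5.12 on the saline arrays. On it the repeated arrays were the highest, the withdrawal arrays came next without overlap, and the acute and saline arrays overlapped below them. The repeated group was 1.68-fold above saline (0.75 ± 0.11, SE; limma unadjusted p 3.87e-05, adjusted p 0.329) and 1.70-fold above acute (0.77 ± 0.11; limma adjusted p 0.293). In withdrawal against repeated the second probe gave -0.42 ± 0.11. The third, dimmer probe gave -0.16 ± 0.26 in repeated against saline and -0.20 ± 0.26 in repeated against acute, so it went the other way within a wide error. All 3 probes were dim, and on intensities without background subtraction the second probe's difference was 0.33 in both comparisons.

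Bassoon and Munc13-1 were near the detection limit. Bsn, one of the largest scaffold proteins of the active zone, measured 3.32, 3.32 and 3.59 on the acute arrays, 3.32, 4.05 and 4.27 on the repeated arrays, 4.14, 3.82 and 4.19 on the withdrawal arrays, and 3.32, 3.90 and 3.32 on the saline arrays, where 3.32 is the floor of the scale. It was not well above background on any acute or saline array. Measured means were 4.05 in withdrawal and 3.41 in acute (adjusted p 0.848 by limma). Set against the lowest signal of detected probes, the withdrawal mean stood at least 1.14-fold above the acute one. That bound holds for the means of these arrays and leaves out sampling error, with no exact size to be had. Bsn passed the detection filter only through repeated and withdrawal arrays, so the difference is a description and no support. Unc13a, which encodes the priming factor Munc13-1, ranged from 3.32 to 5.01, with the groups overlapping. Rims2, a RIM scaffold, measured 9.69, 9.65 and 9.86 in acute, 9.91, 9.86 and 9.89 in repeated, 10.11, 9.85 and 9.88 in withdrawal, and 9.83, 9.65 and 9.95 in saline. Repeated and withdrawal arrays were at the upper end and overlapped saline. Rims1, the main RIM, averaged 0.22 above saline, with a 95% interval of -0.09 to 0.54, and Pclo, or piccolo, averaged 0.13. The other kept probes of Pclo gave 0.44 ± 0.34 and 0.43 ± 0.21 (SE) in the mean of the cocaine groups. In this role all 10 genes were kept, and 5, 8 and 5 were higher than saline in acute, repeated and withdrawal.

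GABA synthesis and loading were represented by 3 genes, whose mean cocaine differences were 0.07 to 0.11 by their brightest probes. Slc32a1, the vesicular GABA transporter, measured 13.61, 13.63 and 13.66 on the acute arrays, 13.74, 13.66 and 13.72 on the repeated arrays, 13.74, 13.68 and 13.73 on the withdrawal arrays, and 13.68, 13.53 and 13.64 on the saline arrays. The withdrawal arrays all lay above the saline arrays, and the mean difference of the cocaine groups from saline was 0.07 with a 95% interval of -0.07 to 0.21. Gad1, the GABA-synthesizing enzyme GAD67, measured 13.13, 12.99 and 13.56 in acute, 13.43, 13.38 and 13.56 in repeated, 13.62, 13.40 and 13.58 in withdrawal, and 13.43, 13.25 and 13.19 in saline. Its acute arrays were both the lowest and among the highest, and in withdrawal against acute the difference was 0.31 ± 0.15 (SE; limma unadjusted p 0.0618). The other kept probes of Gad1, both dimmer, gave 0.35 ± 0.17 and 0.11 ± 0.12 (SE) in the mean of the cocaine groups. Gad2, the GAD65 enzyme at nerve terminals, measured 12.89, 13.04 and 13.12 in acute, 13.02, 13.16 and 13.22 in repeated, 13.37, 13.09 and 13.10 in withdrawal, and 12.95, 12.85 and 13.25 in saline. Its groups overlapped, and the mean difference was 0.10 with an interval of -0.14 to 0.33.

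Slc17a6, the vesicular glutamate transporter VGLUT2, was the most variable of the 47. It measured 8.05, 8.20 and 8.69 on the acute arrays, 6.82, 9.28 and 8.22 on the repeated arrays, 7.26, 8.91 and 6.06 on the withdrawal arrays, and 6.32, 9.09 and 6.47 on the saline arrays. The saline arrays alone spanned 6.32 to 9.09, of 6.06 to 9.28 over all arrays. Its log2 differences from saline were 1.02 in acute, 0.81 in repeated and 0.12 in withdrawal, each with an SE of 0.90. The variation was set beside markers of cortical glutamatergic neurons, taken as the mean log2 deviation of the 12 kept of 15 listed markers. That cortical marker level was 0.35, -0.08 and 0.53 on the acute arrays, -1.14, 0.69 and 0.50 on the repeated arrays, -0.07, 0.82 and -0.63 on the withdrawal arrays, and -0.76, 0.89 and -1.11 on the saline arrays. Each group held arrays above and below 0, and the summed intensity of the list ran over 8222 to 9668 in acute, 8330 to 9637 in repeated, 8683 to 9179 in withdrawal and 7167 to 11026 in saline. The defining marker Tbr1 was at the floor on the first repeated and the third saline array. Slc17a7, the cortical transporter VGLUT1, measured 4.08 on that repeated array and 10.23 on the second saline array. The list did not move as one. The markers Lamp5 and Nrgn measured 11.45 and 10.57 on the second withdrawal array (level 0.82), against 12.15 and 10.92 on the first repeated array (level -1.14). Between these 2 arrays they ran opposite to Slc17a7, Neurod2, Tbr1 and Nrn1. That order did not hold throughout. On the second saline array (level 0.89) Lamp5 and Nrgn measured 11.85 and 11.17, against 11.71 and 10.84 on the first and 12.06 and 10.84 on the third saline array.

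Fitted beside the 4 group means, with this level chosen as a term after the data were seen, Slc17a6 and Stx1a rose with the cortical marker level. The slope of Slc17a6 was 1.40 ± 0.16 log2 units per unit of the level (SE, 2.64-fold; limma adjusted p 0.0104), and that of Stx1a was 0.36 ± 0.06 (limma adjusted p 0.0375). These were 2 of 47 members (4.26%), against 0.613% of 12720 genes with a positive slope past the threshold, and no member had a negative one (0.0314%). Without adjustment 15 members had a positive slope at p under 0.05 (31.9%, against 5.94%), and 1 a negative one (2.13%, against 3.68%). After those 2 came Vamp1 (0.31 ± 0.06), Rab3b, a Rab3 paralogue (0.56 ± 0.10), Rph3a, the Rab3 effector rabphilin (0.32 ± 0.06), Cplx1 (0.22 ± 0.04) and Syt13 (0.57 ± 0.13), with limma adjusted p of 0.0601, 0.0702, 0.0825, 0.0907 and 0.15. Syt6, Syt4, Rab3c and Gad1 had slopes of -0.08, -0.03, -0.04 and 0.00. With the replicate number as a block neither slope passed (Slc17a6 1.13, limma adjusted p 0.0849; Stx1a 0.29, 0.272), and without the second saline array they had adjusted p of 0.119 and 0.327. Stx1a passed in only 1 of 12 fits that left out an array. Without the 2 arrays farthest from the median level, the first repeated and the third saline array, the slope of Slc17a6 was 1.74 with a limma adjusted p of 0.0824.

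**Figure D4:**
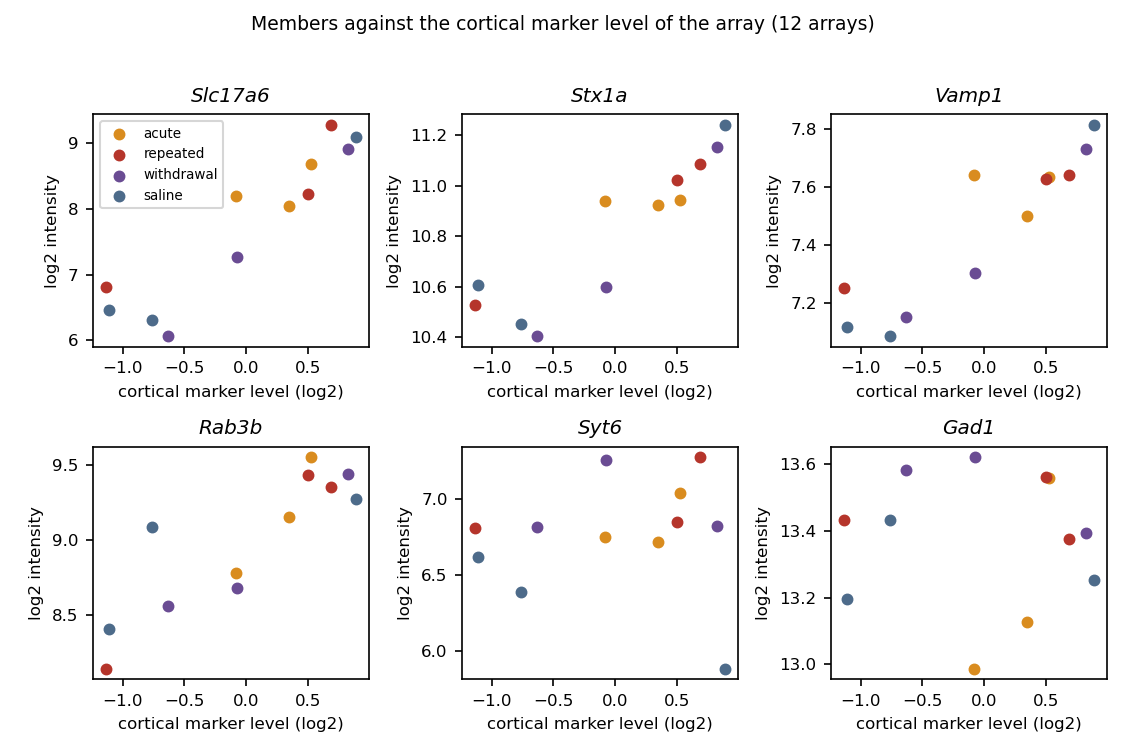
Log2 intensity of Slc17a6, Stx1a, Vamp1, Rab3b, Syt6 and Gad1 (vertical axes) against the cortical marker level of each of the 12 arrays (horizontal axes, mean log2 deviation of 12 markers), coloured by group. Slc17a6, Stx1a, Vamp1 and Rab3b have higher values to the right (slopes 1.40, 0.36, 0.31 and 0.56), while the slopes of Syt6 and Gad1 are -0.08 and 0.00.

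With the cortical marker level as a term of the fit, the differences of Syt6, Syt4 and Rab3c moved by less than their errors. Syt6 was 0.66 ± 0.18 above saline in the mean of the cocaine groups (SE; limma adjusted p 0.382), Syt4 was 0.23 ± 0.07 above (limma adjusted p 0.385), and Rab3c was 0.53 ± 0.20 above in repeated against saline. The difference of Slc17a6 was 0.05 ± 0.27, against 0.65 ± 0.73 without the term. Of the SNAREs, Stx1a was at -0.08 and Snap23 at -0.02 in the mean of the cocaine groups with the term, and the other kept ones stayed positive. Syn3 had 0.45 ± 0.14 with the term by its brightest probe, and without the term the other probes of that gene differed in direction. The median of the members' differences was then 0.01 in acute, 0.09 in repeated and 0.04 in withdrawal against saline.

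The rest of the release pathway, taken from lists of genes that are no members, also held no gene past the adjusted threshold. Of 83 further genes of release and vesicle handling, 68 were kept, and by limma 0 had an adjusted p under 0.05. In acute, repeated and withdrawal against saline, 1, 4 and 4 were higher and 2, 3 and 3 lower at an unadjusted p under 0.05, where 3.75%, 8.59% and 7.15% of all genes were called in either direction. Rab27b, a GTPase of secretory vesicles, was at -1.11 ± 0.34 in acute against saline, and Syt14, a calcium-independent synaptotagmin, at 0.94 ± 0.31 in repeated against saline (SE; limma adjusted p 0.465). Slc18a2, the vesicular monoamine transporter, whose transcript is made in the midbrain cell bodies of dopamine neurons, was at 1.01 ± 0.38 in withdrawal against saline. Endocytosis had 26 of 32 genes kept, with 2 higher and 1 lower in repeated and 1 higher in withdrawal at that unadjusted threshold (8.59% of all genes in repeated and 7.15% in withdrawal). The adaptor subunit Ap2b1 was at 0.41 ± 0.14 in both. The vesicular proton pump, which energizes transmitter loading, had 16 of 18 genes kept, of which Atp6v1g1 was at -0.22 ± 0.10 in repeated and Atp6v0a2 at 0.22 ± 0.09 in withdrawal against saline. Median differences of these 3 lists from saline lay between 0.01 and 0.07.

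Marker lists of cell types were read beside these values. In the mean of the cocaine groups, medians were 0.05 for medium spiny neurons and 0.09 for striatal interneurons. They were 0.05 for astrocytes and 0.01 for oligodendrocytes and precursors. In the same order, 8 of 14, 9 of 14, 8 of 10 and 5 of 10 kept markers were higher than saline, where 49.5% of all genes were. All 10 kept of 12 microglial markers were lower in the mean of the cocaine groups than in saline, with a median of -0.12, and 4 had an unadjusted p under 0.05 (7.7% of all genes). The median deviation of the list ran from -0.12 to 0.13 on the acute arrays, from -0.17 to 0.06 on the repeated arrays, from -0.18 to 0.03 on the withdrawal arrays and from 0.05 to 0.17 on the saline arrays. The 8 kept markers of vessels and blood had a median of -0.15, with 2 higher. By limma, 0 markers of either list had an adjusted p under 0.05. Ttr, a marker of choroid plexus, was at -3.96 ± 1.40 in acute against saline (SE; limma adjusted p 1). Its list, of choroid plexus, ependyma and meninges, had 7 kept markers. Of these, 3 were higher and 4 lower in that comparison, with a median of -0.08. Cortical markers had medians of 0.26 in acute, 0.12 in repeated and 0.21 in withdrawal against saline, with 9, 8 and 9 of 12 higher. Of all genes, 49.1%, 49.1% and 49% were higher in these comparisons. Markers of septal, hypothalamic and thalamic neurons, a list that includes Slc17a6 itself, had 10 of 14 kept. Their medians were 0.10 in acute, 0.22 in repeated and -0.03 in withdrawal against saline. Of the 10, 9 were lower in withdrawal than in repeated, a comparison in which 50.7% of all genes were higher. The part of these cells in the members' differences was not tested, beyond the fit with the cortical marker level.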

How the data were processed

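Expression was measured on 12 arrays of pooled accumbens punches, and the values were taken as deposited. Per the series design text, the authors subtracted background and quantile normalized in BeadStudio (version not given in the sources used here). The deposited table of background-subtracted intensity values was used. The other deposited table of intensity values is higher by a constant 60.7 (deviations up to 0.00586) and also gives the authors' detection p-value of each probe, per the file headers. Intensities below 10 were set to 10, which held for 6.34% of kept values, and log2 was taken. Probes detected at p under 0.05 on at least 3 arrays were kept (25478 of 45281), and a gene was read through its brightest kept probe by the platform's probe table, in which 34885 probes have 1 symbol, 18 several and 10378 none listed. Group differences came from limma 3.58.1 under R 4.3.3 (lmFit and eBayes on the 4 groups, 8 residual and 2.16 prior degrees of freedom, two-sided, Benjamini-Hochberg over all kept probes).

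The arrays are independent pools, per the labels, and their number limits the precision; no 2 arrays held identical values. Members and lists were chosen with earlier results of these data known. Values on every array were given for members past the series criteria and for the 4 with the smallest p in each comparison. The same held for Syt1, Vamp2, Stx1a, Gad1, Gad2, Slc32a1 and Slc17a6, and for Snap25, which had no level. Other members were named by their differences, slopes or ranges. Same-numbered arrays deviated together, over all probes, in repeated against acute (correlations 0.44, 0.25 and 0.26), repeated against saline (0.47, 0.34 and 0.13) and withdrawal against saline (0.39, 0.29 and 0.17), with numbers taken from the labels. Correlations were 0.46, 0.19 and 0.06 in acute against saline and 0.40, 0.12 and 0.04 in withdrawal against acute. In withdrawal against repeated they were 0.41, 0.25 and 0.03. Arrays numbered 1 thus correlated at 0.39 to 0.47 in every pair of groups. Tested on simulated data for repeated against saline over 25478 probes, the fit recovered 52% of 100 probes changed by a log2 of 1 and 91% of 100 changed by 2. It also called 7 unchanged probes. The simulated noise was independent between arrays, unlike that of same-numbered arrays here. Smaller changes were not simulated, so the recovery of most differences reported here is not known. Alternatives covered the filter, the background, the floor, the probe choice, the variance model, the block and each array left out.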

Additional observations from a re-analysis of the deposited data

How the results depend on the processing

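Of 665 values of the 28 named member differences under alternatives, 662 kept their direction and their side of the limma adjusted threshold, 3 turned and 0 passed it. These 28 were picked for their small p on the same arrays, and none was past the threshold in the main fit. The count is therefore no support for the differences. With the mean of all kept probes of a gene in place of the brightest, Syn2 gave -0.14 in repeated against saline and -0.11 in repeated against acute, and Vamp3 gave -0.045 in withdrawal against acute. The second Rab3c probe, an alternative chosen after seeing the data, gave -0.02 in acute against saline, with 0.058 without the second acute array, 0.02 without the second saline array and -0.094 to 0.058 over all arrays left out. The cause of each was not tested.

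Over fits that left out 1 array, probes past the adjusted threshold numbered 0 to 1 in acute, repeated and withdrawal against saline, 0 to 4 in repeated against acute, 0 to 1 in withdrawal against acute and in the cocaine mean. Members past the series criteria numbered 1 to 2, 1 to 3 and 1 to 3 against saline, 0 to 2 in repeated against acute, 0 to 2 in withdrawal against acute, 0 to 1 in withdrawal against repeated and 1 to 2 in the cocaine mean. Their median difference was 0.02 to 0.07, 0.08 to 0.17 and 0.03 to 0.12 against saline, 0.01 to 0.11 in repeated against acute, -0.03 to 0.07 in withdrawal against acute, -0.10 to 0.010 in withdrawal against repeated and 0.06 to 0.12 in the cocaine mean. Members with a slope past the threshold numbered 0 to 3.

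The 1 probe past the adjusted threshold in repeated against acute (0 members) became 0 with detection on all 12 arrays, no filter, unsubtracted intensity, an added 50, the replicate block, arrays numbered 2 and 3 only, a trended robust variance, only the compared groups, and the cortical level as a covariate. With no filter 1 probe passed in withdrawal against saline, against acute and against repeated and in the F test. With unsubtracted intensity or an added 50, 1 passed in acute against saline, the cocaine mean and the F test, and 1 in repeated against saline for unsubtracted intensity.

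Members past the series criteria in withdrawal against acute became 0 with detection on all arrays, a floor of 1, unsubtracted intensity, an added 50, arrays 2 and 3 only and a trended robust variance. With unsubtracted intensity or an added 50, 0 met them in acute against saline and in repeated against acute, and 1 in repeated against saline. In withdrawal against saline 2 met them with number 1 against 2 and 3 as a block, with only the compared groups, with the mean of probes and with the cortical covariate. Arrays 2 and 3 alone gave 0 in acute against saline and 3 in withdrawal against repeated, where the median was -0.093. A trended robust variance gave 1 in repeated against acute. The mean of probes gave 1 in repeated against acute, 1 in withdrawal against repeated and 0 in the cocaine mean. The cortical covariate, added after seeing the data, gave 3 in acute against saline, 4 in repeated against acute, 1 in withdrawal against repeated and 2 in the cocaine mean.

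Members with a slope past the threshold numbered 6 with detection on all arrays, 7 with unsubtracted intensity or an added 50, 1 with a floor of 1 or the block of number 1, and 0 with no filter, the replicate block, arrays 2 and 3 only, or without the 2 farthest arrays. With the replicate block no other call differed. In acute against saline, withdrawal against acute and withdrawal against repeated the same-number correlations were not all above 0.1 (lowest 0.06, 0.04 and 0.03). Pooling and 3 arrays a group limit these results, and genes near the floor have no firm size.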
